A study of Homo sapiens with 6 samples.

Results

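Splicing factors and core spliceosome proteins were followed in human forebrain organoids exposed to the amyloid-β peptide Aβ42. The group was defined by gene symbol, with earlier results of these data known. It held all genes named SRSF followed by a digit (SR proteins), HNRNP (heterogeneous nuclear ribonucleoproteins) or SNRP (proteins of the small nuclear ribonucleoproteins, or snRNPs). Genes named SF3A and SF3B followed by a digit (the SF3 complexes of the U2 snRNP) belonged to it too, together with PTBP1, PTBP2, RBFOX1, RBFOX2 and RBFOX3. This gave 60 of the 18056 genes listed, of which 59 had enough reads to test. They comprised 12 SR protein genes, 22 hnRNP genes, 8 genes of the Sm core, 4 other SNRP genes, 9 SF3A and SF3B genes, 2 PTBP genes and 3 RBFOX genes. HNRNPCL4 was the gene not tested, with 2 counts in Aβ42 replicate 2 and 0 in the other libraries.

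DYR0100, an established line of induced pluripotent stem cells (genotype WT), was the source of the organoids, which were made by a dorsal forebrain protocol. Bulk polyadenylated RNA was sequenced from 3 libraries given vehicle and 3 libraries given 5 µM Aβ42, each for 6 days, all labelled as 1 batch. The design text calls the replicates independent biological replicates. All 6 libraries share 1 cell line, and neither the age of the organoids nor the number pooled per library is given in the labels. Total estimated counts lay between 16465390 and 16742958 per library. Levels are given in CPM (read counts divided by the TMM-scaled library size and set to a common total). All 10 forebrain progenitor markers examined had enough reads to test, whereas 4 of 5 microglia markers (AIF1 at most 1 count in a library) and 2 of 4 endothelial markers (CDH5 at most 1 count) had too few. The others of these lists were low, with 41 to 47 counts of CD68, 16 to 49 of CLDN5 and 9 to 35 of KDR. In such bulk libraries, fewer cells of a type and less RNA per cell cannot be told apart.

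Introns are removed by the spliceosome, most of whose snRNPs carry a ring of Sm proteins around a small nuclear RNA. The U1 snRNP recognises the start of an intron, and the U2 snRNP, with the SF3A and SF3B complexes, grips the branch point near its end. SR proteins bind exons and generally favour their inclusion, hnRNP proteins often act against them, and PTBP and RBFOX proteins set neural splicing programmes, PTBP1 being typical of progenitors and RBFOX3 (NeuN) of maturing neurons. Many SR protein genes are known to limit their own expression through poison exons, whose inclusion sends the transcript to nonsense-mediated decay.

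The stretches in front of the start sites are shown for 3 SR protein genes that were lower and 3 SF3 genes that were higher with Aβ42 under the paired fit described below, since these families differed most in direction. Each is the 150 bases before the RefSeq start (GRCh38.p14), 5′ to 3′ on the gene's strand. Capitals mark matches on either strand to the TATA box, searched as TATAAA, the CCAAT box, searched as CCAAT, the core bound by ETS factors, searched as CGGAAG, the GC box, searched as GGGCGG, and part of the cAMP response element, searched as TGACG. The positions are chr17:58007247-58007396 on the minus strand for SRSF1, chr6:36594212-36594361 on the plus strand for SRSF3, chr20:43457746-43457895 on the plus strand for SRSF6, chr19:2236674-2236823 on the plus strand for SF3A2, chr11:66052214-66052363 on the plus strand for SF3B2 and chr2:24076327-24076476 on the minus strand for SF3B6. For all of these genes but SRSF6 this start lies downstream of the first base of the gene in GENCODE.
SRSF1: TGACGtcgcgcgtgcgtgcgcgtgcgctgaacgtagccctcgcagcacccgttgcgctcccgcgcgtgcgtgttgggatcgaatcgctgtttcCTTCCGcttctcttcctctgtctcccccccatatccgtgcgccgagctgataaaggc
SRSF3: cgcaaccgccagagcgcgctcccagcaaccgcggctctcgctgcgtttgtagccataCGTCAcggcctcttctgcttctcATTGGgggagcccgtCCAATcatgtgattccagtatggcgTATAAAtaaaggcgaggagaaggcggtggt
SRSF6: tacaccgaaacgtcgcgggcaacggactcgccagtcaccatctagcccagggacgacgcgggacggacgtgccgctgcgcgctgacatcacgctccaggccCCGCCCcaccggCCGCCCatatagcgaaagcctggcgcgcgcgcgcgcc
SF3A2: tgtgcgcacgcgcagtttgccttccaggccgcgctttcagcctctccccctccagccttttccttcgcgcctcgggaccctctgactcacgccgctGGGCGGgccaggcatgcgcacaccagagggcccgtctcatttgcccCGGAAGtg
SF3B2: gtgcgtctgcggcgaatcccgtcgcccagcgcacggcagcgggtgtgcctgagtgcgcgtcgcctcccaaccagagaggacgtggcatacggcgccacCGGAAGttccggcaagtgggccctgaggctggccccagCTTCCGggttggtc
SF3B6: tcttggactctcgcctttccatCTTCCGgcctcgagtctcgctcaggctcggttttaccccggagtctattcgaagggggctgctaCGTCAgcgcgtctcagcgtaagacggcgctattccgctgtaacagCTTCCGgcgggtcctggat

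All 3 SF3 stretches hold CGGAAG, as do all 8 of the SF3A and SF3B genes with a sequence in the table. The motif was found in 3 of 11 SR protein genes, 6 of 20 hnRNP genes, 3 of 7 Sm genes and 3 of 4 other SNRP genes, and in 21.2% of the 11307 tested genes with a sequence. TATAAA was found in 3.19% of the tested genes, CCAAT in 27.1%, GGGCGG in 59.4% and TGACG in 22%, always in the same 150 bases. No matches overlap in the stretches shown. The motifs were chosen with the results in view, and a match describes these letters only.

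Whether exposure to Aβ42 changed the expression of the splicing machinery was asked by comparing the Aβ42 with the vehicle libraries. In edgeR's quasi-likelihood test without a block, 0 of the 59 genes passed an adjusted p-value of 0.05 in either direction, and neither did any of the 13842 genes tested (0% called higher and 0% lower). The DESeq2 Wald test called 3 members higher and 6 lower, against 3.4% and 3.72% of the 11426 genes it gave an adjusted p-value. At an unadjusted p-value under 0.05, 9 members were higher and 13 lower, against 12.4% and 11.5% of all tested genes. In 12 members all Aβ42 values lay above all vehicle values and in 13 below, against 13.6% and 13.4% of all tested genes. Deviations of same-numbered vehicle and Aβ42 libraries correlated at 0.181, 0.388 and 0.129 for numbers 1 to 3. Numbers 1 and 3 correlated as highly across (0.154 and 0.177), so the pairing is singled out by number 2 only. Choroid plexus markers (mostly TTR) summed to 436.5, 947.7 and 487.7 CPM in vehicle and 487.9, 883.7 and 384.4 CPM with Aβ42. Mesenchyme markers summed to 28.8, 61.35 and 24.6 CPM and 14.3, 26.1 and 13.9 CPM. Both sums were highest in number 2 of each group, though not every marker was (AQP1 was highest in vehicle 1). What the number 2 libraries share was not tested. With the replicate number as a block 5 members passed as higher (HNRNPC, SF3A2, SF3B2, SF3B5 and SF3B6). In the same fit 8 passed as lower (SRSF1, SRSF2, SRSF3, SRSF6, SRSF7, SRSF8, SRSF10 and RBFOX1). The background in that fit was 7.12% of genes called higher and 7.05% lower, so the members called higher were near the background share and those called lower were above it, 7 of the 8 being SR proteins. With a correction for transcript length added to the block, 3 members passed as higher and 8 as lower, against 7.68% and 7.13% of genes. Below, "passed" refers to this paired fit unless stated otherwise, and log2 fold changes and standard errors (SE) are from the fit without a block. Brackets with unnamed numbers hold the log2 fold change ± SE and then the adjusted p-values without and with the block, a single p-value being that with the block.

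**Figure D1:**
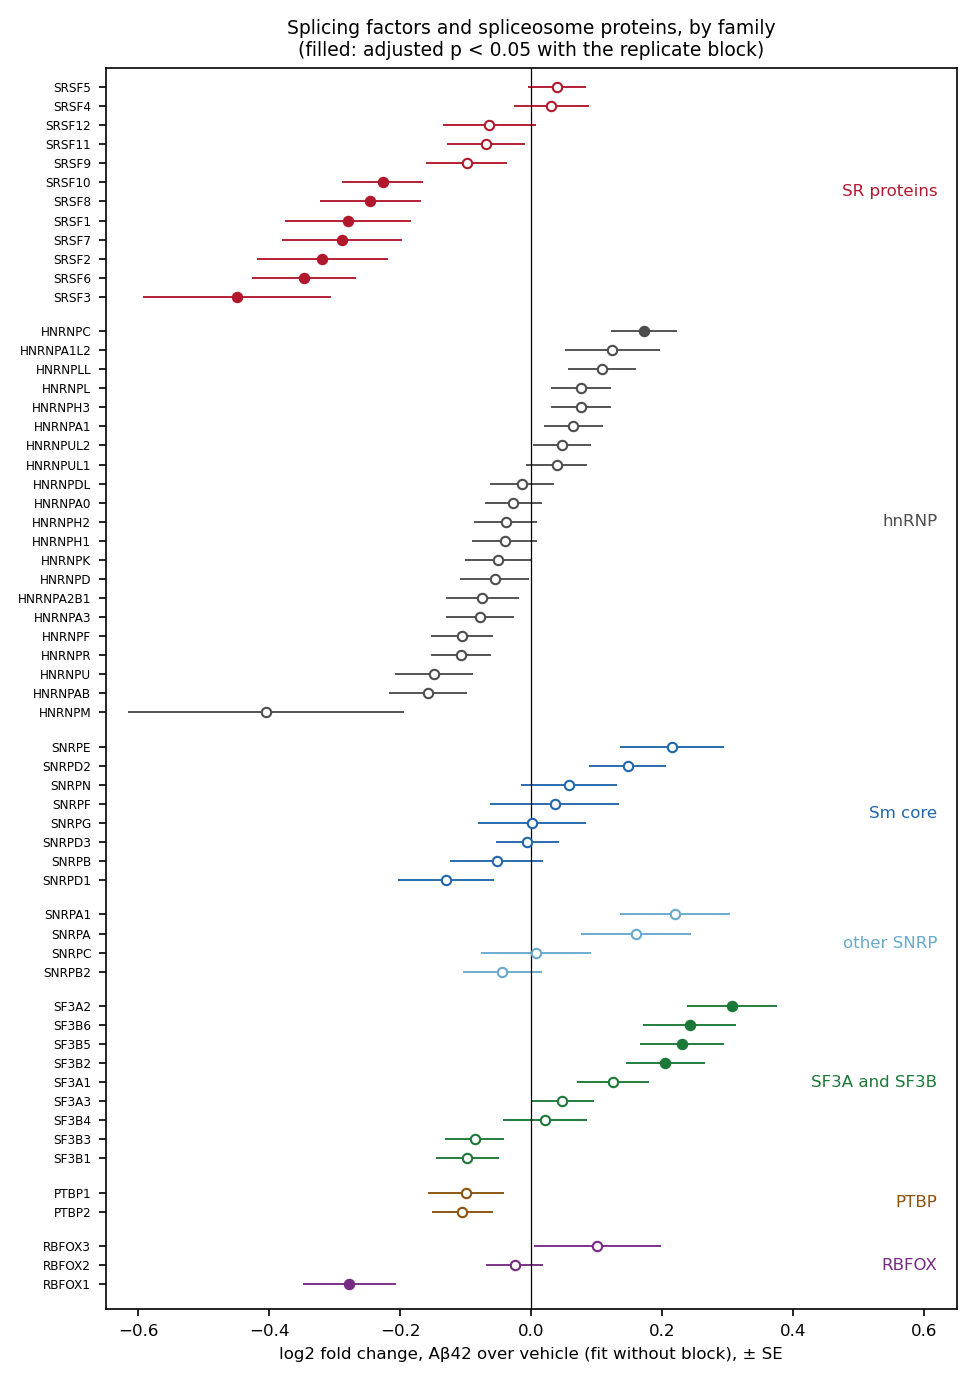
Log2 fold change of Aβ42 over vehicle for the 59 tested genes, grouped by family, from the fit without a block (points, with SE as bars). Filled points passed an adjusted p-value of 0.05 with the replicate block. The SR proteins reach from -0.45 to 0.04, while the SF3A and SF3B genes reach from -0.10 to 0.31.

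The SR protein genes were lower as a family. Of 12 genes, 10 had a log2 fold change below 0, as did 49.3% of all tested genes, and the median was -0.24 against 0.0032 over all tested genes. Across the scaling, length and replicate alternatives the median stayed between -0.31 and -0.18. In all, 7 passed as lower and 0 as higher, against 7.05% and 7.12% of all tested genes. The groups did not overlap in 5 (SRSF1, SRSF2, SRSF3, SRSF6 and SRSF10), where 13.4% of all tested genes lay wholly below vehicle.

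SRSF6 (Entrez gene ID 6431, chr20:43457928-43464247 on the plus strand), an SR protein that regulates alternative exons, was at 202.6, 213.2 and 212.3 CPM in the vehicle libraries (replicates 1 to 3, here as in all such lists) and at 158.0, 188.1 and 147.6 CPM in the Aβ42 libraries. All Aβ42 values were below all vehicle values, with Aβ42 replicate 2 the nearest to vehicle. The log2 fold change was -0.35 ± 0.08 (SE), with an adjusted p-value of 0.0734 without and 0.00169 with the block. SRSF3 (6428, chr6:36594353-36605600 on the plus strand), the smallest SR protein and a factor that also couples splicing to export of the message, showed the deepest drop of the family. It was at 215.9, 221.3 and 218.5 CPM in the vehicle libraries and at 141.0, 200.5 and 138.6 CPM with Aβ42, so that replicates 1 and 3 were far below vehicle and replicate 2 only slightly. Its log2 fold change was -0.45 ± 0.14, with adjusted p-values of 0.139 without and 0.0376 with the block, 0.0638 with the block and a correction for transcript length, and 1.3e-05 without Aβ42 replicate 2.

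SRSF1 (6426, chr17:58003360-58007346 on the minus strand), the founding SR protein, was at 265.3, 287.7 and 264.9 CPM in the vehicle libraries and at 214.9, 261.9 and 196.9 CPM with Aβ42. The groups did not overlap, although Aβ42 replicate 2 lay just under the lowest vehicle value. The log2 fold change was -0.28 ± 0.10 and the adjusted p-value 0.138 without and 0.00341 with the block. SRSF2 (6427), which binds exonic enhancers and was long known as SC35, was at 128.1, 129.9 and 123.8 CPM in the vehicle libraries and at 95.6, 120.9 and 89.6 CPM under Aβ42 (log2 fold change -0.32 ± 0.10, adjusted p-values 0.119 and 0.00505). Its estimated counts were not whole in any library, so part of its reads may have been divided with another feature. SRSF10 (10772), an SR-like protein that acts as a repressor when dephosphorylated, was at 260.5, 275.5 and 270.5 CPM in vehicle against 230.4, 249.0 and 209.6 CPM with Aβ42 (-0.23 ± 0.06, 0.0846 and 0.00975).

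In SRSF7 and SRSF8 the groups overlapped through Aβ42 replicate 2. SRSF7 (6432), a close relative of SRSF3, was at 98.3 to 109.2 CPM in the vehicle libraries and at 77.8, 99.4 and 78.4 CPM under Aβ42 (log2 fold change -0.29 ± 0.09, adjusted p-values 0.118 without and 0.0124 with the block). SRSF8 (10929), an intron-poor copy of SRSF2, was at 52.9 to 60.6 CPM and at 46.1, 53.3 and 45.5 CPM (-0.25 ± 0.08, 0.109 and 0.0157), and its counts were whole in all 6 libraries. Whether reads were shared with SRSF2 was not tested. All 8 members that passed as lower had their highest Aβ42 value in replicate 2. Over all 976 genes called lower in that fit this share was 89.4%, and over all tested genes 38.8%. Of the 5 members that passed as higher, 4 had their lowest Aβ42 value in replicate 2, against 90.2% of the genes called higher. Without Aβ42 replicate 2 and without a block, the same 7 SR genes had adjusted p-values from 1.3e-05 (SRSF3) to 0.00541 (SRSF8), against a background of 11.7% called lower, while leaving out any other single library gave no call in any gene.

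**Figure D2:**
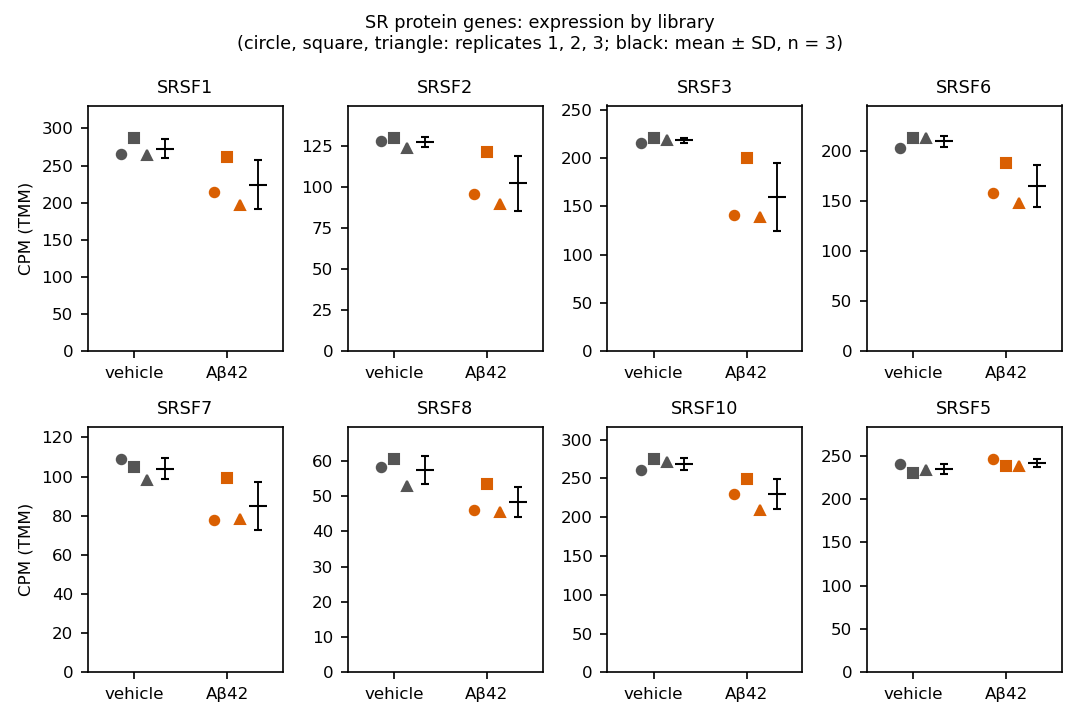
Expression (CPM, linear axes from 0) of the 7 SR protein genes that passed as lower and of SRSF5, which did not pass, in the 3 vehicle (grey) and 3 Aβ42 (orange) libraries. Symbols mark the replicate number and black bars the mean and SD. In the 7 genes Aβ42 replicate 2 (square) lies nearest to vehicle.

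The other 5 SR genes did not pass. SRSF5 (6430), the family member with the most transcripts per length (457.8 ± 5.05 TPM in vehicle, SD, n = 3), was at 234.7 ± 5.55 CPM in vehicle against 241.1 ± 4.71 CPM under Aβ42 (log2 fold change 0.04 ± 0.04). SRSF4 was at 88.2 ± 3.94 and 90.1 ± 5.05 CPM (0.03 ± 0.06). On the log2(TPM + 1) scale both values were below 0 (-0.02 each), where the median of all tested genes was -0.04. SRSF9, SRSF11 and SRSF12 had log2 fold changes of -0.10, -0.07 and -0.06, each with groups that overlapped. Within the family, the summed level of all 12 genes was 2103 to 2159 CPM in vehicle against 1861, 1999 and 1724 CPM in Aβ42 replicates 1 to 3.

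A feature the SR genes share is annotated decay isoforms. In GENCODE release 29, all 12 have at least 1 transcript typed as a target of nonsense-mediated decay, against 13 of 21 tested hnRNP genes, 2 of 8 Sm genes, 3 of 9 SF3 genes, 0 of 3 RBFOX genes and 41.8% of the 13523 tested genes matched by symbol. The table gives 1 value per gene, so productive and decay isoforms are counted together in these levels.

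Proliferation markers were lower in the same libraries. All 10 markers (MKI67, TOP2A and others) had log2 fold changes below 0, 9 of them passed, and their summed level was 882.1, 1053 and 946.9 CPM in vehicle against 601.5, 813.2 and 574.7 CPM with Aβ42, with replicate 2 again the highest in all 10. The intermediate progenitor markers had 5 of 6 lower and 4 passed, with a summed level of 204.2 to 226.2 CPM in vehicle against 138.9 to 169.2 CPM with Aβ42. None of the 10 forebrain progenitor markers passed as higher and 1 (NES) passed as lower, with a summed level of 2364 to 2571 CPM and 2493 to 2588 CPM. Of 6 astrocyte markers 5 were lower and 3 passed (S100B, SLC1A3 and GJA1), with a summed level of 781.2, 875.2 and 816.2 CPM in vehicle against 617.5, 816.5 and 678.4 CPM under Aβ42, and replicate 2 was the highest Aβ42 library in 5 of them. The part of these markers in the SR result was not tested.

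The SF3A and SF3B genes went the other way. Of 9 genes, 4 passed as higher and 0 as lower, against 7.12% and 7.05% of all tested genes. The median log2 fold change was 0.12 (0.08 to 0.17 across all alternatives, the lower end on the log2(TPM + 1) scale). The change was unequal within the complexes: the groups did not overlap in the 4 genes that passed, which were higher, nor in SF3B1 and SF3B3, which were lower, where 13.6% and 13.4% of all tested genes lay wholly above or below vehicle.

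SF3A2 (8175, chr19:2236504-2248679 on the plus strand), a subunit of the complex that joins U2 to the pre-mRNA, was at 64.5, 60.7 and 60.4 CPM in the vehicle libraries and at 76.1, 69.8 and 83.4 CPM with Aβ42. Every Aβ42 value exceeded every vehicle value. The log2 fold change was 0.31 ± 0.07, the highest of the 59 genes, with adjusted p-values of 0.0734 without the block, 0.00459 with it and 0.00135 without Aβ42 replicate 2. SF3B2 (10992, chr11:66050729-66069308 on the plus strand), which contacts the pre-mRNA next to the branch point, was at 228.3, 208.0 and 227.2 CPM in the vehicle libraries and at 260.0, 235.0 and 269.7 CPM with Aβ42 (0.20 ± 0.06, 0.0974 and 0.011). Here both libraries numbered 2 were the lowest of their group.

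The smallest SF3B subunits were higher too, but less firmly. SF3B5 (83443) was at 28.2, 28.0 and 27.1 CPM in vehicle against 32.1, 32.1 and 33.5 CPM under Aβ42 (log2 fold change 0.23 ± 0.06, adjusted p-values 0.0889 without and 0.0402 with the block). SF3B6 (51639), the subunit that touches the branch-point adenosine, was at 39.5, 36.4 and 39.1 CPM in vehicle against 44.4, 42.5 and 49.1 CPM with Aβ42 (0.24 ± 0.07, 0.0954 and 0.024). Their transcripts lie at the 1.48th and 1.18th percentile of length among tested genes. With the block and a correction for the trend of fold change on length they no longer passed (adjusted p-values 0.133 and 0.0928), whereas SF3A2 (0.00839) and SF3B2 (0.0105) did.

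SF3B1 (23451), the large subunit that closes around the branch point, was the most abundant by transcript per length (320.6 ± 17.2 TPM in vehicle). It was at 616.5, 624.9 and 657.8 CPM in the vehicle libraries and at 583.4, 614.2 and 577.1 CPM under Aβ42 (log2 fold change -0.10 ± 0.05, adjusted p-value 0.206 with the block). SF3B3 (23450), the propeller-shaped scaffold, was at 224.6 to 231.1 CPM and 208.1 to 221.2 CPM (-0.09 ± 0.04, 0.246). SF3A1, SF3A3 and SF3B4 had log2 fold changes of 0.12, 0.05 and 0.02 and did not pass. The summed level of the 9 genes was 1434 to 1489 CPM in vehicle against 1466 to 1502 CPM with Aβ42, so the groups overlapped.

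**Figure D3:**
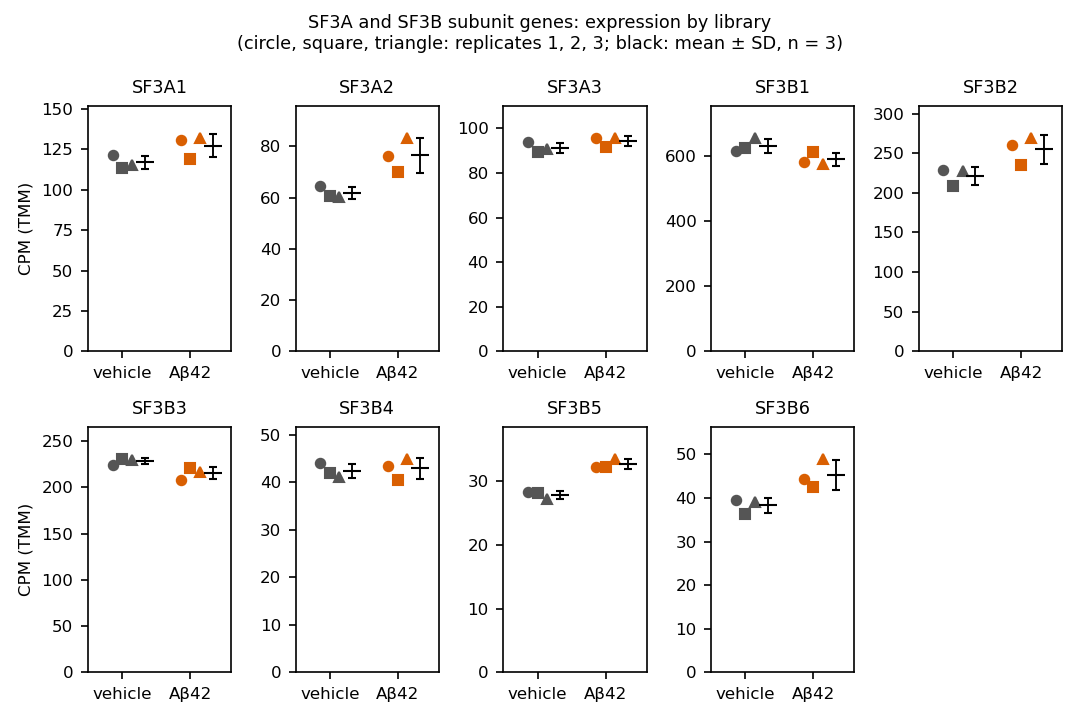
Expression (CPM, linear axes from 0) of the 9 SF3A and SF3B genes in each library, with the replicate number as symbol and the mean and SD in black. SF3A2, SF3B2, SF3B5 and SF3B6 lie higher with Aβ42 without overlap, and SF3B1 and SF3B3 lie slightly lower.

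The Sm proteins, which form the ring of most snRNPs, showed no call. Of 8 genes 0 passed in edgeR's test with the block, against 7.12% of all tested genes called higher and 7.05% lower. For so few genes, 0 calls are near that share. Without the block 2 were higher and 0 lower at an unadjusted p-value under 0.05, against 12.4% and 11.5% of all tested genes. The median log2 fold change was 0.02, and its sign turned on the log2(TPM + 1) scale (-0.07, where the median of all tested genes was -0.04), with a pseudocount of 0.1 in its place (-0.07), with the length correction (-0.05) and without vehicle replicate 1 (-0.0072) or Aβ42 replicate 3 (-0.0013). SNRPE (6635) was at 26.0, 23.2 and 26.3 CPM in vehicle against 27.4, 29.6 and 30.6 CPM with Aβ42 (0.22 ± 0.08, adjusted p-value 0.0746 with the block), and SNRPD2 (6633) at 42.3 to 44.6 and 46.5 to 49.4 CPM (0.15 ± 0.06, 0.131). In both the groups did not overlap. SNRPD2, the Sm gene with the most transcripts per length (561.8 ± 21.0 TPM in vehicle), lies at the 0.46th percentile of length, and its log2 fold change with the length correction was 0.05.

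SNRPD1 (6632) was lower in Aβ42 replicates 1 and 3 (44.9 and 47.4 CPM) but not in replicate 2 (54.5 CPM), against 52.6 to 54.5 CPM in vehicle. It did not pass with the block (adjusted p-value 0.189) and passed without Aβ42 replicate 2 (0.0233). SNRPN (6638), the neural member of the ring, was at 93.2 to 103.3 CPM in vehicle against 91.6 to 112.5 CPM with Aβ42 (0.06 ± 0.07). SNRPB (-0.05) and SNRPD3 (-0.0061) overlapped between groups, and so did SNRPF and SNRPG, at 12.6 to 15.4 and 20.4 to 23.6 CPM over the 6 libraries.

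The 4 proteins specific to U1 and U2 gave no call in edgeR's test with the block either, against 7.12% and 7.05% of all tested genes. Without the block 1 was higher and 0 lower at an unadjusted p-value under 0.05, against 12.4% and 11.5%. SNRPA1 (6627), the U2 A′ protein, was at 28.1, 27.2 and 29.4 CPM in vehicle against 32.4, 29.7 and 36.5 CPM with Aβ42, without overlap (log2 fold change 0.22 ± 0.08, adjusted p-values 0.154 without and 0.0564 with the block, and 0.0177 without Aβ42 replicate 2). SNRPA (6626), the U1 A protein, was at 29.6 to 34.5 and 33.0 to 39.4 CPM (0.16 ± 0.08), and SNRPB2 (6629), the U2 B″ protein, at 64.7 to 69.6 and 62.4 to 69.8 CPM (-0.04 ± 0.06). SNRPC, of the U1 snRNP and the family member with the most transcripts per length (174.3 ± 8.51 TPM), was at 31.8 to 35.1 and 30.2 to 36.4 CPM. The median of the family was 0.08, and 0.03 with the length correction.

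The hnRNP genes, the largest family, had a median close to 0, with single genes in both directions. Of 21 tested genes 1 passed as higher and 0 as lower, against 7.12% and 7.05% of all tested genes. In 5 genes all Aβ42 values lay above vehicle and in 4 below, against 13.6% and 13.4% of all tested genes. At an unadjusted p-value under 0.05 without the block 1 was higher and 4 lower, against 12.4% and 11.5%. The median log2 fold change was -0.04 (-0.09 to -0.02 across all alternatives). HNRNPC (3183, chr14:21209136-21269494 on the minus strand), which coats nascent transcripts and blocks cryptic exons, was at 463.7, 448.6 and 462.8 CPM in the vehicle libraries and at 512.8, 491.3 and 545.0 CPM with Aβ42. All Aβ42 values were above all vehicle values. Its log2 fold change was 0.17 ± 0.05, with adjusted p-values of 0.0946 without the block, 0.0271 with it and 0.0248 with the block and the length correction.

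HNRNPM (4670, chr19:8444767-8489114 on the plus strand), a regulator of alternative exons, had the most uneven values. It was at 198.1, 201.3 and 192.0 CPM in the vehicle libraries and at 118.4, 199.8 and 128.4 CPM with Aβ42, so that replicates 1 and 3 were far below vehicle and replicate 2 lay within its range. The log2 fold change was -0.41 ± 0.21 and did not pass without (adjusted p-value 0.308) or with the block (0.283). Without Aβ42 replicate 2 it was -0.68, with an adjusted p-value of 2.1e-05. HNRNPU (3192), a nuclear scaffold protein, was at 885.5, 903.4 and 880.9 CPM and 777.2, 880.2 and 751.1 CPM (-0.15 ± 0.06, 0.0579 with the block), and HNRNPAB (3182) at 142.9 to 146.6 and 121.9 to 142.1 CPM (-0.16 ± 0.06, 0.0598). In both the groups did not overlap, and without Aβ42 replicate 2 their adjusted p-values were 0.00463 and 0.00466. With the block and the length correction HNRNPAB passed as lower (0.0189).

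HNRNPA1 (3178), an exon silencer, was the most abundant of all 60 genes, at 1215 ± 21.4 TPM in vehicle. Its levels were 1697, 1624 and 1617 CPM in vehicle against 1731, 1755 and 1676 CPM under Aβ42 (log2 fold change 0.06 ± 0.05), with overlap through Aβ42 replicate 3. HNRNPA2B1 followed at 852.3 ± 40.5 TPM and HNRNPK at 671.5 ± 17.5 TPM, with log2 fold changes of -0.07 and -0.05. HNRNPA1L2, an intron-poor copy of HNRNPA1 whose reads could be divided with it, was at 30.4 to 30.7 and 31.2 to 36.1 CPM (0.12 ± 0.07). HNRNPLL and HNRNPR had log2 fold changes of 0.11 and -0.11 and did not pass. The remaining hnRNP genes lay between -0.11 (HNRNPF) and 0.08 (HNRNPL).

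PTBP1 and PTBP2, repressors of neural exons that replace one another as progenitors become neurons, had like log2 fold changes that did not pass. PTBP1 (5725) was at 91.3, 86.9 and 88.2 CPM in vehicle against 80.1, 89.3 and 79.1 CPM under Aβ42 (log2 fold change -0.10 ± 0.06, adjusted p-value 0.269 with the block, 0.0406 without Aβ42 replicate 2). PTBP2 (58155) was at 137.2, 140.4 and 131.2 CPM and at 124.9, 129.2 and 126.0 CPM (-0.11 ± 0.05, 0.182 with the block). Only PTBP2 was free of overlap. The log2 ratio of PTBP1 over PTBP2 in CPM came to -0.59, -0.69 and -0.57 for vehicle and to -0.64, -0.53 and -0.67 for Aβ42, a mean difference of 0.0031 (exact permutation test, two-sided, p = 1, where 0.1 is the smallest p that 3 against 3 libraries allow). Over the alternatives this difference ran from -0.04 to 0.03.

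The RBFOX genes, which promote or repress neuronal exons by position, differed from each other. RBFOX1 (54715, chr16:5239802-7713338 on the plus strand) passed as lower, at 101.5, 121.4 and 101.2 CPM in vehicle against 89.1, 91.5 and 86.7 CPM with Aβ42. The groups did not overlap, vehicle replicate 2 standing above the rest. The log2 fold change was -0.28 ± 0.07, with adjusted p-values of 0.0779 without the block, 0.00484 with it and 0.00643 with the block and the length correction. RBFOX2 (23543), the most abundant of the 3 (369.3 ± 8.39 TPM in vehicle), was at 992.3 to 1011 CPM and 960.5 to 993.5 CPM (-0.03 ± 0.04), and RBFOX3 (146713) at 17.8 to 21.3 and 18.7 to 21.7 CPM (0.10 ± 0.10). Of the 10 neuron markers 4 passed as lower (TUBB3, MAP2, GAP43 and TBR1) and 0 as higher. Their log2 fold changes were below 0 in 7 and above 0 in 3. In 6 (DCX, TUBB3, MAP2, MYT1L, GAP43 and TBR1) all Aβ42 values lay below vehicle and in 1 above, against 13.4% and 13.6% of all tested genes. SNAP25 was higher without overlap (0.15, adjusted p-value 0.0564 with the block), and STMN2, SYT1 and NEUROD6 lay near 0 (0.016, 0.0044 and -0.00078). The summed level of the 10 markers was 7157 to 7630 CPM in vehicle against 6720 to 6994 CPM with Aβ42. The part of the neuron markers in the RBFOX1 and PTBP2 values was not tested.

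**Figure D4:**
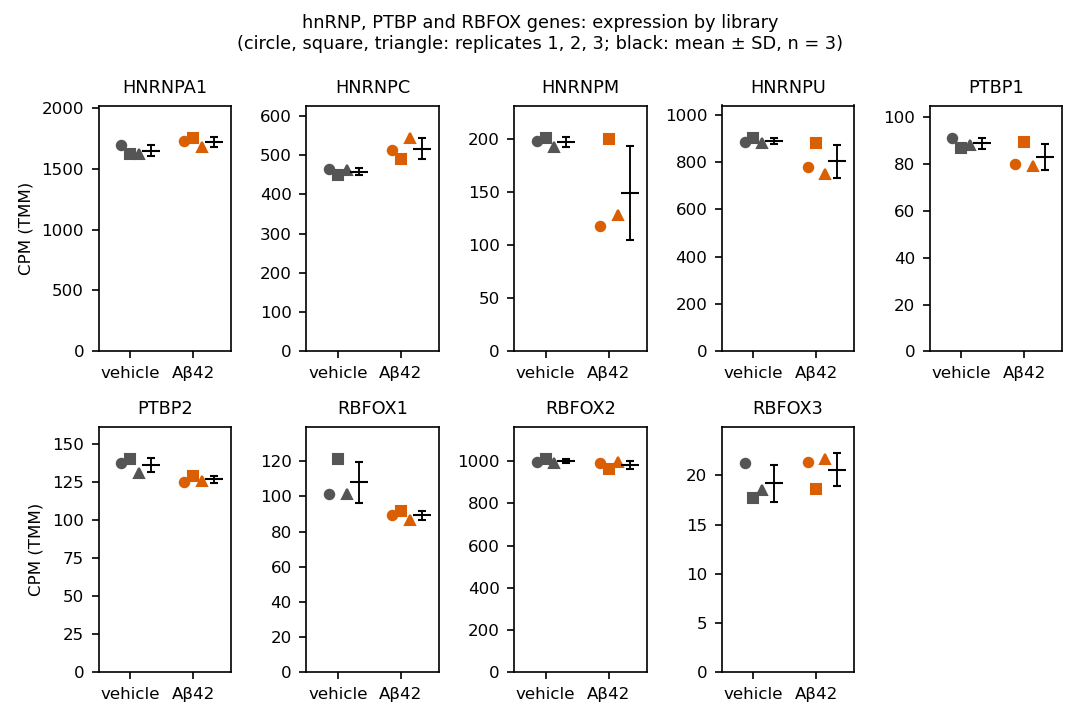
Expression (CPM, linear axes from 0) of 4 hnRNP genes, both PTBP genes and the 3 RBFOX genes in each library, with the replicate number as symbol and the mean and SD in black. HNRNPM is low in Aβ42 replicates 1 and 3 only, and RBFOX1 is lower in all 3 Aβ42 libraries.

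Seen by library, the families separated in Aβ42 replicates 1 and 3. The median deviation of the SR genes from their mean over the 6 libraries (log2 CPM) came to 0.09, 0.16 and 0.08 in vehicle (replicates 1 to 3) and to -0.15, 0.02 and -0.22 under Aβ42. For the SF3A and SF3B genes it came to -0.0037, -0.10 and -0.06 in vehicle against 0.09, -0.0040 and 0.12 under Aβ42. The median of the hnRNP genes stayed within -0.05 and 0.05. Aβ42 replicate 2 thus lay between the vehicle libraries and the other Aβ42 libraries for the SR genes, and level with vehicle replicate 1 for the SF3 genes.

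**Figure D5:**
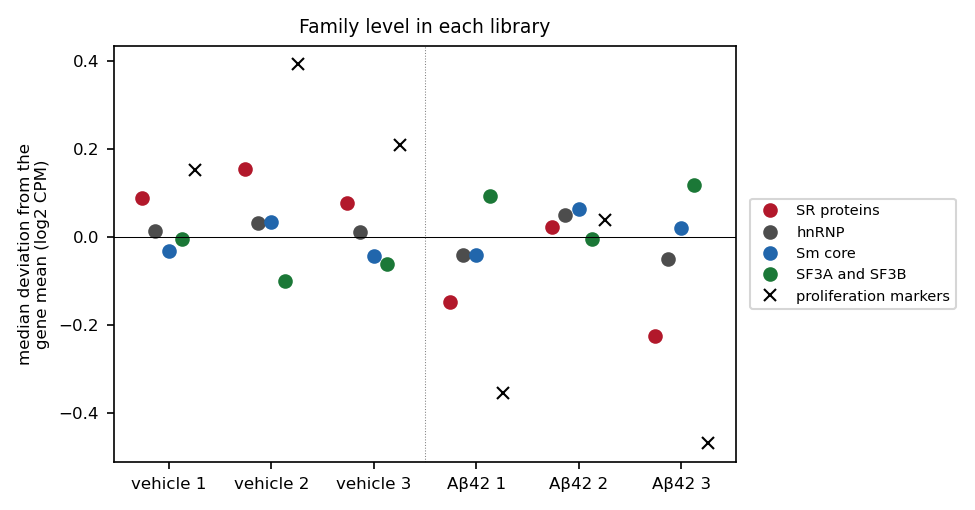
Median deviation of each family from its genes' means over the 6 libraries, in log2 CPM, by library. Crosses show the 10 proliferation markers in the same measure. In Aβ42 replicates 1 and 3 the SR genes (-0.15 and -0.22) and the SF3 genes (0.09 and 0.12) lie on opposite sides of 0.

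Other genes of the splicing pathway were read from 8 lists with 130 tested genes, of which 4 passed as higher and 8 as lower, no larger a share than the 7.12% and 7.05% of all tested genes. Their median log2 fold change was 0.0062. At an unadjusted p-value under 0.05 without the block, 12 were higher and 17 lower, near the 12.4% and 11.5% of all tested genes. The SR kinases and SR-related proteins had 1 higher and 3 lower of 18, against 7.12% and 7.05% of all tested genes. CLK3, a kinase that phosphorylates SR proteins, was at 29.2, 27.3 and 28.6 CPM in vehicle against 40.5, 33.7 and 40.6 CPM under Aβ42 (log2 fold change 0.43 ± 0.08, adjusted p-values 0.0684 without and 0.00123 with the block). TRA2A, an SR-like activator, was at 115.2, 116.3 and 126.0 CPM and 99.1, 107.8 and 100.6 CPM (-0.22 ± 0.05, 0.076 and 0.0161). Its partner TRA2B and ACIN1 also passed as lower (log2 fold changes -0.20 and -0.18).

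Among 29 further hnRNP-type and tissue-specific regulators 2 passed as higher and 5 as lower, against 7.12% and 7.05% of all tested genes. PCBP2, a poly(C)-binding protein, was higher (350.9 to 380.1 CPM in vehicle against 394.2 to 440.7 CPM under Aβ42, log2 fold change 0.19 ± 0.05, adjusted p-value 0.0189 with the block), and so was MBNL2 (0.30, 0.0197). CELF5, a brain splicing regulator, was lower (121.2 to 135.2 and 101.5 to 112.3 CPM, -0.24 ± 0.06, 0.00608), together with CELF2 (-0.16), MBNL1 (-0.23), SYNCRIP (-0.21) and TIA1 (-0.26). Of the last 4, CELF2 and MBNL1 no longer passed with the block and the length correction (0.0713 and 0.056).

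The core machinery outside the chosen families showed a single call, where 7.12% of all tested genes were called higher and 7.05% lower. XAB2, of the complex built around PRPF19, rose from 32.0 to 34.9 CPM in vehicle to 37.9 to 43.0 CPM under Aβ42 (log2 fold change 0.29 ± 0.07, adjusted p-value 0.0116 with the block), 1 of 23 genes of that complex and the catalytic steps, while AQR (-0.15) did not pass. In edgeR's test with the block, no gene passed among 15 factors of U1 and U2 recognition (SNRNP70 at 0.09, SF1 at -0.11), 16 of the tri-snRNP (SNRNP200 at 0.12, TXNL4A at -0.18), 7 LSM proteins (LSM8 at 0.19, LSM5 at -0.22), 8 of the minor spliceosome (ZRSR2 at 0.19, SNRNP25 at -0.25) and 14 of snRNP assembly (CLNS1A at 0.14, WDR77 at -0.25). With the block and the length correction SNRNP200 (0.0317) and LSM8 (0.0109) passed as higher and WDR77 (0.0412) as lower, against 7.68% and 7.13% of genes.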

How the data were processed

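For each gene and library, 1 file deposited by the authors holds the read count and the TPM value, the latter scaled by the authors for length and library total. The submitters' processing notes name FastQC, STAR 2.7.11b, featureCounts 2.0.6 and GRCh38, and the annotation is not given in the sources used here. Only 86.9% to 87.5% of the deposited counts in a library were whole, so they were treated as estimated counts and rounded, and reads shared between features may have been divided (11 members had counts that were not whole).

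Of 18056 genes, 13842 passed filterByExpr in edgeR 4.0.16 (R 4.3.3). Libraries were scaled by TMM and compared with the quasi-likelihood test (robust, two-sided), adjusted by Benjamini-Hochberg over all tested genes at 0.05. SE is the size of the log2 fold change over the square root of F. The alternatives were RLE scaling, other filters, DESeq2 1.42.0, limma 3.58.1 with voom quality weights or on log2(TPM + 1) and log2(TPM + 0.1), the replicate block, a loess offset on transcript length (from the ratio of count to TPM, 13493 genes), both together, and leaving out each library. Tests were also run on simulated counts with 1 common dispersion and no replicate or length effect. That run therefore does not check the block or the length correction where such effects exist. The block without replicate 2 of both groups was added after seeing the data.

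The labels do not say what a replicate number shares. Deviations from the group means, over the 12200 genes averaging 50 counts or more, correlated between same-numbered vehicle and Aβ42 libraries at 0.181, 0.388 and 0.129 for numbers 1 to 3, so libraries were treated as paired by number, from the data alone. Vehicle 1 with Aβ42 3 (0.154) and vehicle 3 with Aβ42 1 (0.177) were as high, so these values single out only number 2. No pair of libraries was a duplicate (chi-square per gene 3.16 to 21.2). The lowest value was that of vehicle 1 with Aβ42 2. Against vehicle 1 to 3, Aβ42 2 was at 3.16, 7.71 and 4.58, and against Aβ42 1 and 3 at 9.41 and 8.49. Over these genes Aβ42 2 thus lay nearer to each vehicle library than to the other Aβ42 libraries.

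Members and lists were chosen with earlier results of these data known. Named were PTBP and RBFOX genes, the 3 (2 in families under 8) members with the smallest p in each direction per family, the member with the highest TPM, and 1 gene per direction of each list. All other genes named (SRSF1, SRSF2, SRSF3, SRSF7, SF3B2 and HNRNPM among them) were chosen after their values were seen. Promoter sequences are from RefSeq (GRCh38.p14, first listed start, 55 of 60 members matched by gene ID), and gene positions and isoform types from GENCODE release 29 on GRCh38, matched by symbol (60 of 60). The median tested gene had 495.5 to 515.9 counts per library. P-values without the block measure the spread between these libraries, and those with it the spread left once differences between replicate numbers are removed.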

Additional observations from a re-analysis of the deposited data

How the results depend on the processing

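In edgeR's test without the block, no gene passed under RLE scaling, a mean of at least 10 counts or the length correction, nor did any by limma on either TPM scale. Genes called as higher and lower, over all genes, were 189 and 171 with no filter, 389 and 425 by DESeq2, 1251 and 1292 by voom with quality weights, 986 and 976 under the replicate block, 1036 and 962 with the replicate block and length correction, and 1048 and 1048 with the block and replicate 2 of both groups left out. Members called, in the same order, were 1 and 2, 3 and 6, 7 and 11, 5 and 8, 3 and 8, and 3 and 11, and genes of the splicing lists 2 and 1, 3 and 5, 9 and 19, 4 and 8, 9 and 7, and 9 and 9. Of the 13 members called with the block, 10 were also called with the block and length correction. The count of members at an unadjusted p under 0.05 was 21 lower with quality weights. Leaving out each library gave 0 to 1609 genes higher and 0 to 1619 lower, 0 to 7 members higher and 0 to 13 lower, 0 to 14 list genes higher and 0 to 22 lower, 5 to 11 members higher and 7 to 23 lower at an unadjusted p under 0.05, and 12 to 17 members wholly above and 13 to 27 wholly below vehicle. All calls among these came without Aβ42 replicate 2. For the unadjusted and overlap counts under the alternatives, the share of all tested genes was not counted. These counts therefore cannot show whether the members exceeded that share, and groups separate more easily when a library is left out. Members wholly above vehicle numbered 7, not 12, on both TPM scales and with the length correction, with or without the replicate block, and those wholly below 19 on the TPM scales and 10 with the length correction, not 13.

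With TPM on a log2 scale and pseudocounts of 1 and 0.1, the median of all tested genes moved to -0.0401 and -0.0434, from 0.0032. There the medians were -0.0866 and -0.0871 for hnRNP genes, -0.0672 and -0.0677 for Sm genes, 0.0161 and 0.0164 for other SNRP genes and -0.0699 and -0.0701 for RBFOX genes. With the length correction, without and with the replicate block, they were -0.0473 and -0.0462 for Sm and 0.0308 and 0.0296 for other SNRP genes.

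Of 54 named genes, 6 changed sign, all at small values. RBFOX2 was at 0.0057 and 0.0054 with the length correction, without and with the block. With TPM and pseudocounts of 1 and 0.1, where SRSF5, SRSF4 and SNRPN stayed above the median of all tested genes, SRSF5 was at -0.0248 in both, SRSF4 at -0.0189 and -0.019, SNRPN at -0.0035 in both and SNRPC at -0.0695 and -0.0699. SNRPC was at -0.0567 and -0.0584 with the length correction, without and with the block, and at -0.0200 in the block without replicate 2 of both groups, where SNRPD3 was at 0.0047. Over the fits that left out 1 library each, SRSF4 ran from -0.015 to 0.0673, SNRPN from -0.0134 to 0.133, SNRPD3 from -0.0352 to 0.0108 and SNRPC from -0.0411 to 0.0887.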

Other observations

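The ratio of count to TPM gives a relative transcript length per gene and library, a readout that the fold changes in CPM do not use. Over 13312 tested genes the 5th and 95th percentile of its log2 change with Aβ42 were -0.053 and 0.056, and of the 59 members 3 lay above and 1 below that range. With the vehicle mean set to 100, SNRPF was at 100.6, 102.0 and 97.4 in vehicle and at 107.6, 105.1 and 104.6 with Aβ42 (log2 change 0.081), and SNRPD2 at 100.9, 101.1 and 98.0 and at 105.9, 104.4 and 105.0 (0.071). Both are very short transcripts, at the 0.25th and 0.46th percentile of length. SRSF2 was at 101.7, 99.5 and 98.9 and at 105.0, 102.2 and 105.6 (0.060), at the 28.9th percentile of length. HNRNPLL, a relative of HNRNPL, was at 98.9, 101.5 and 99.6 and at 95.3, 96.9 and 91.6 (-0.080). Vehicle and Aβ42 values were thus separate in each of these 4 genes. How the authors set transcript length is not given in the sources used here.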
